A study of Mus musculus with 34 samples.

Results

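The growth hormone and IGF1 axis of the mouse liver was followed here through 10 genes, Igf1, Igfals, Igfbp1, Igfbp2, Igfbp3, Ghr, Socs2, Socs3, Stat5a and Stat5b. They are 10 of the 16535 genes that the array names by RefSeq accession. Every non-control probe whose RefSeq accession maps to one of these symbols was taken, which gave 13 of the 41174 probes of the array. Ghr had 3 probes, Stat5b had 2 and each of the other genes had 1. The Igf1 probe was printed in 10 spots on every array. All 13 probes were well above background in both channels on all 34 arrays, none was saturated, and each probe is described separately.

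In this axis, growth hormone from the pituitary binds its receptor (encoded by Ghr) on hepatocytes and activates the kinase JAK2. JAK2 phosphorylates STAT5A and STAT5B, which enter the nucleus and switch on target genes, among them Igf1, Igfals and Socs2. IGF1 leaves the liver for the blood, where most of it travels in a complex of IGFBP3 and the acid-labile subunit (encoded by Igfals). SOCS2 and SOCS3 act back on the receptor to limit the signal. Thyroid hormone is known to act on body growth in part through this axis, and the first weeks after birth are the time when it matures in rodents.

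The livers came from 34 C57BL/6 pups at PND 15, 17 of each sex, in 4 treatments. Control pups had untreated dams and received a saline injection 4 hours before tissue collection (4 males and 4 females). Hypo pups were nursed by dams that drank 0.05% methimazole and 1% perchlorate, agents that block thyroid hormone synthesis, for 3 days, and they also received saline (4 males and 5 females). Hyper pups had untreated dams and were injected with 50 μg T4 and 5 μg T3 per 100 g body weight 4 hours before collection (5 of each sex). Hypo+ pups had dams on the same goitrogen water and were injected with 20 μg T4 and 2 μg T3 per 100 g at that time (4 males and 3 females). The hormone dose of the hyper and hypo+ groups therefore differed, and by the study's methods the hypo+ pups kept in the design were those whose serum T4 lay near or somewhat above that of controls. As a group, the study reports, their serum T4 was significantly higher than in controls. Each array set the RNA of 1 pup (Cy5) against a purchased mouse reference RNA (Cy3), with no dye swap. A level below is the loess-normalized log2 ratio of Cy5 to Cy3, and a difference between groups is a difference of such levels. A difference was called when limma's adjusted p (Benjamini-Hochberg over all 41174 probes) was under 0.05.

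Array-wide features bear on these genes in the following ways. Dio1, the thyroid hormone-induced deiodinase of liver, had hypo minus control differences of -1.46 in males and -1.77 in females (log2 scale, limma adjusted p = 0.0124 and 0.00923). Thrsp, a hormone-induced regulator of fat synthesis, was higher in hyper than in hypo pups by 2.29 and 2.75 (adjusted p = 0.0047 and 3.25e-05). Not every contrast of these 2 genes was called. Thrsp had hypo minus control differences of -1.55 in males and -1.48 in females (limma adjusted p = 0.358 and 0.0768). Dio1 had uncalled hyper minus control differences of 0.37 and 0.29. All 5 measured hepatocyte markers (of 7 listed) were well above background on all 34 arrays, as were the defining Kupffer and endothelial markers. The mean log2 ratio of the hepatocyte markers ran from 5.31 to 5.65 on the 8 arrays of the 2 slides scanned on 1 of the 6 days. On the other 26 arrays it ran from 4.07 to 4.93. Those 2 slides held 1 array of each of the 8 groups. Pancreatic acinar markers stand for tissue that lies beside the liver, and of 6 measured, Pnlip was well above background on 3 arrays and the others on 27 to 34. Their mean was above 1.5 on 4 arrays. These were male control pups 832 (4.02) and 522 (3.66), female control pup 831 (2.85) and female hypo+ pup 543 (1.74), while the other arrays lay between 0.72 and 1.05. Any 2 arrays correlated at 0.951 to 0.987 over all probes, so no array repeated another.

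Among the treatments, the STAT5 genes and Socs2 differed, and no gene of the circulating IGF system was called. In 10 comparisons (5 in each sex), 4 of the 13 probes were called at least once, and they belonged to 3 genes, Stat5a, Stat5b and Socs2. The share of all probes called in each comparison is given below. Both STAT5 genes were lowest in hypo pups and highest in hyper pups in each sex, whereas Socs2 ran the opposite way. Igf1, Igfals, Igfbp1, Igfbp2, Igfbp3, Ghr and Socs3 (9 probes, 90 tests) gave no call by limma, with 2 of the 90 tests at an unadjusted p under 0.05. With slide as a fixed block more of these tests were under 0.05, still without a call. Among them were Igfbp1 and Igfbp2 in male hypo+ versus control (limma unadjusted p = 0.00149 and 0.0027). Igfals and Igf1 in female hypo versus control were others (0.000578 and 0.00549), so the lack of calls does not show that these genes were flat. In these whole-liver samples, fewer cells of a type and less RNA per cell cannot be told apart.

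**Figure D1:**
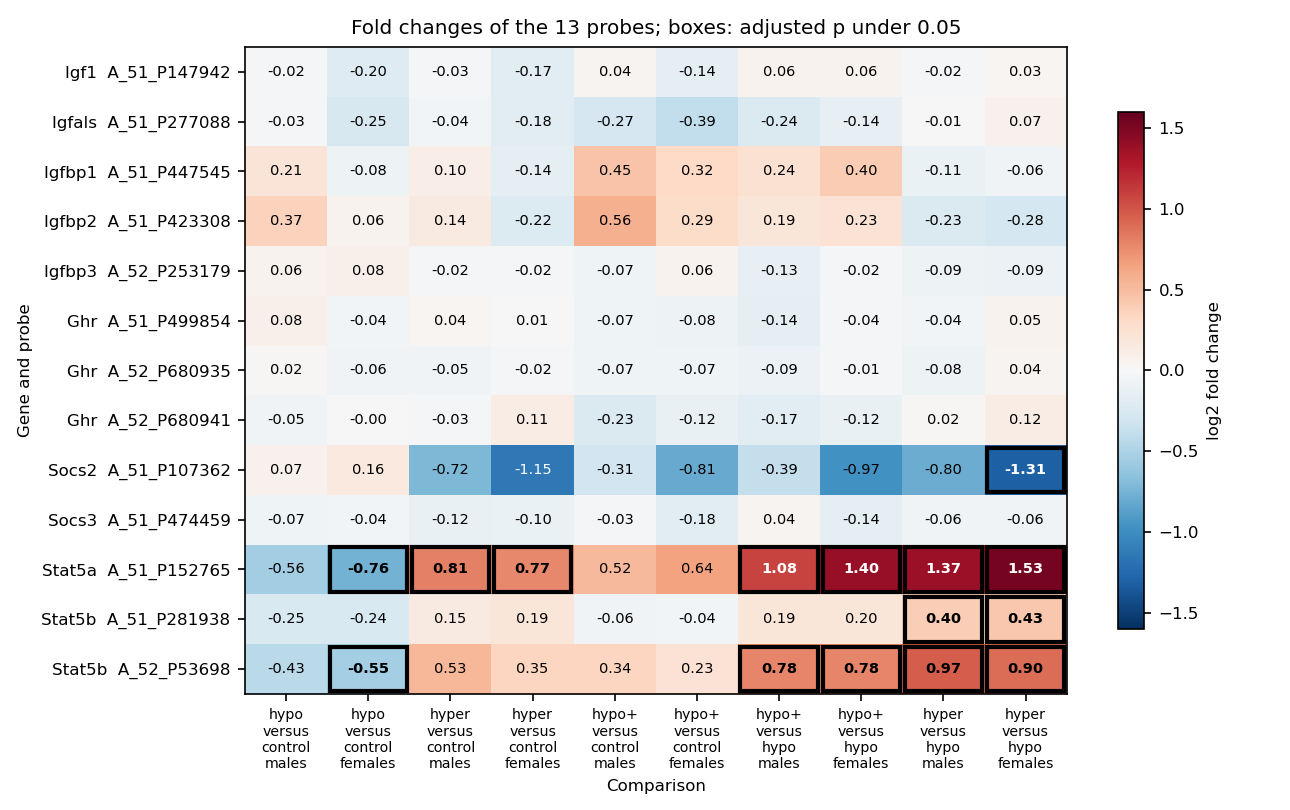
Log2 fold changes of the 13 probes (rows) in the 10 comparisons (columns), printed in each cell and coloured from blue (lower in the first-named group) to red (higher). Boxes mark the cells with limma's adjusted p under 0.05, which fall in the rows of Stat5a, Stat5b and Socs2 only.

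By comparison, the counts of called member probes stood as follows beside the share of all probes called. For hypo versus control, 0 of 13 were called in males, against 0.0971% of all probes, and 2 in females, both lower, against 0.155%. In each sex 3 of the 13 had an unadjusted limma p under 0.05 there, as did 5.19% of all probes in males and 4.72% in females. For hyper versus control, 1 was called higher in males (0.0753% of all probes) and 1 higher in females (0.158%). For hypo+ versus control, 0 were called in either sex, where 0.0267% of all probes were called in males and 0.0219% in females. In each sex 3 of the 13 had an unadjusted limma p under 0.05 there, as did 7.56% of all probes in males and 4.79% in females. For hypo+ versus hypo, 2 were called higher in males (0.369%) and 2 higher in females (0.556%). For hyper versus hypo, 3 were called higher in males (1.39%), and in females 3 were called higher and 1 lower (2.5%). The median log2 difference of the 13 probes stayed between -0.07 and 0.04 in all 10 comparisons, and that of all probes between -0.01 and 0.00, so the calls came from a few members and not from a shift of the set. Comparisons that share the control or the hypo pups are not independent of each other. Where pups of 2 groups are said below not to overlap, 1.27% to 5.88% of all probes did not overlap either, depending on the comparison.

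Stat5a, which encodes 1 of the 2 STAT5 proteins, gave the largest differences of the axis. In male hypo pups its levels were 0.17, 0.44, 0.55 and 0.68, and in male control pups 0.63, 0.89, 1.12 and 1.44. Male hypo+ pups had 1.43, 1.46, 1.55 and 1.70, and male hyper pups 1.73, 1.74, 1.82, 1.88 and 1.97. The male hypo and control pups overlapped at a single pair of values, control and hypo+ barely overlapped, and every hyper pup lay above every other male. Female hypo pups had -0.01, 0.22, 0.23, 0.54 and 0.63, and female control pups 0.86, 1.09, 1.16 and 1.21. Female hypo+ pups had 1.36, 1.83 and 1.97, and female hyper pups 1.65, 1.77, 1.80, 1.94 and 2.11. In females, hypo, control and the hormone-injected pups formed ranges that did not overlap, while hypo+ and hyper overlapped.

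The order hyper, hypo+, control, hypo was the same in the 2 sexes. The widest Stat5a contrast was hyper versus hypo, 1.37 ± 0.13 (SE) in males and 1.53 ± 0.13 in females on the log2 scale, that is 2.59-fold and 2.88-fold (limma adjusted p = 2.02e-05 and 4.91e-06). Hypo+ exceeded hypo by 1.08 ± 0.14 in males and 1.40 ± 0.15 in females (adjusted p = 0.000905 and 0.000215), 4 hours after the hormone injection. Within slides the hyper minus hypo difference was positive on 4 of 4 slides in males (1.21 to 1.57) and on 5 of 5 in females (1.25 to 1.78). Against controls the differences were smaller. Hyper exceeded control by 0.81 ± 0.13 in males and 0.77 ± 0.14 in females (adjusted p = 0.0223 and 0.0382), and the hypo minus control difference in females was -0.76 ± 0.14 (adjusted p = 0.0388). The male hypo minus control difference was -0.56 ± 0.14 and was not called (adjusted p = 0.238), and hypo+ minus control was 0.52 ± 0.14 in males and 0.64 ± 0.16 in females (adjusted p = 0.389 and 0.348).

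The calls against control rested on narrow margins. In males, hyper versus control was no longer called without control pup 522, 832 or 881 or hyper pup 696, 784 or 864 (log2 differences of 0.68 to 0.84 without them, adjusted p at most 0.103). In females, it was lost on leaving out any control pup (394, 523, 831 or 882), any hyper pup (499, 585, 621, 783 or 861), hypo pup 743 or hypo+ pup 763, with differences of 0.70 to 0.82 and an adjusted p of at most 0.18. The Stat5a call for female hypo versus control was lost without any control pup, hyper pup 499, 621 or 861, hypo pup 316, 575 or 743, or hypo+ pup 763, with differences of -0.83 to -0.67 and an adjusted p of at most 0.144. Without the 4 arrays with raised acinar markers the Stat5a differences were 0.67 and 0.82 for hyper versus control in males and females and -0.71 for female hypo versus control (adjusted p = 0.441, 0.0632 and 0.12). The hyper versus hypo and hypo+ versus hypo calls of Stat5a stood in all 17 of the fits that left out 1 array of that sex. Median centring ended the male hypo+ versus hypo call (0.91, adjusted p = 0.872). The calls against control were also lost with median centring and the scanner software's ratios, and those for male hyper and female hypo with normexp and with only the compared groups in the fit (adjusted p of 0.0505 to 1 over these settings). With both sexes averaged and litter as a random block, Stat5a was called in all 5 comparisons, hypo versus control at -0.67 ± 0.10 (adjusted p = 0.000219), hyper versus control at 0.79 ± 0.10 (adjusted p = 1.09e-05) and hypo+ versus control at 0.56 ± 0.11 (adjusted p = 0.00913). The litters are an assumption, read from the leading digits of the pup numbers, since the labels state no litter.

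**Figure D2:**
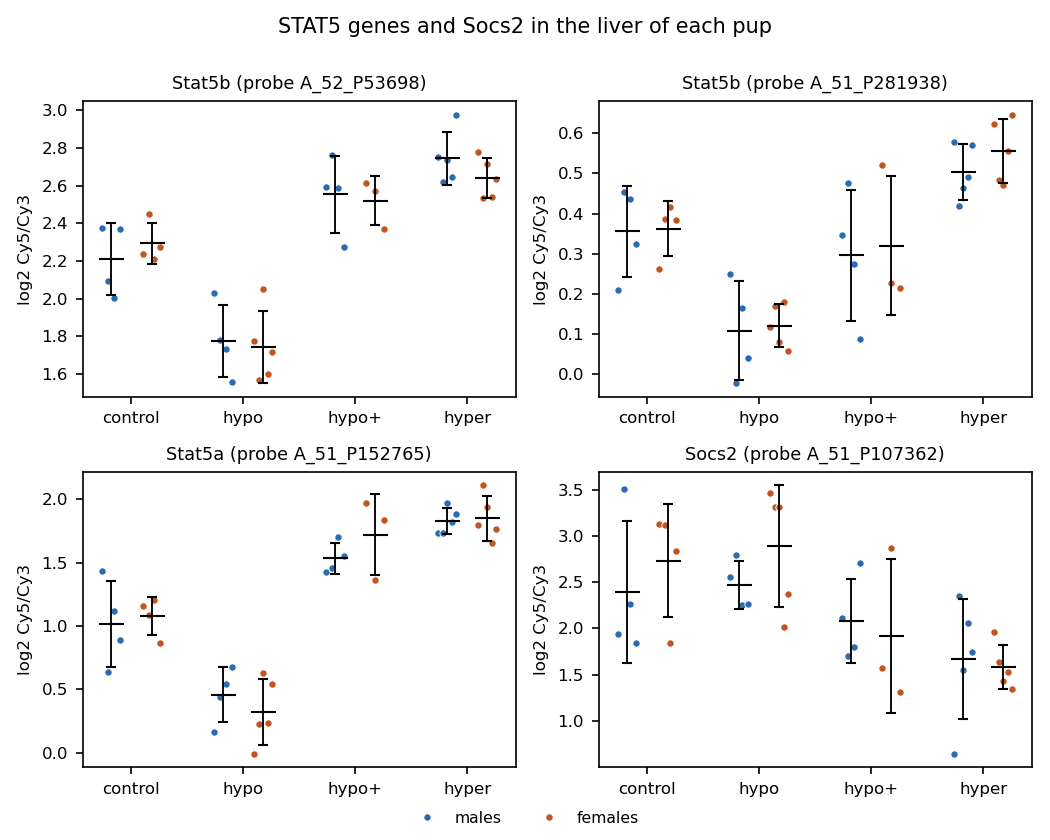
Log2 Cy5/Cy3 ratio of the 2 Stat5b probes, Stat5a and Socs2 in each pup (points), by treatment and sex, with the group mean (horizontal line) and SD (error bars). The STAT5 probes rank hypo lowest and hyper highest in both sexes, and Socs2 ranks hyper lowest.

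Stat5b encodes the STAT5 protein that carries most of growth hormone's signal in male liver, and it lies beside Stat5a in the genome. Its brighter probe, A_52_P53698 (raw Cy5 signal of 5569 to 26744), followed Stat5a. In males its levels were 1.56, 1.73, 1.78 and 2.03 in hypo pups, 2.00, 2.09, 2.37 and 2.37 in control pups, 2.27, 2.59, 2.59 and 2.76 in hypo+ pups, and 2.62, 2.64, 2.74, 2.75 and 2.98 in hyper pups. Hyper pups again lay clear of control and hypo pups, and hypo and control overlapped only between 2.00 and 2.03. In females they were 1.57, 1.60, 1.72, 1.78 and 2.05 in hypo pups, 2.21, 2.23, 2.27 and 2.45 in control pups, 2.37, 2.57 and 2.61 in hypo+ pups, and 2.54, 2.54, 2.63, 2.71 and 2.78 in hyper pups. All female hypo pups lay below all female control pups.

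Hyper exceeded hypo at that probe by 0.97 ± 0.11 in males and 0.90 ± 0.09 in females (1.96-fold and 1.86-fold, limma adjusted p = 0.000171 and 1.24e-05). Hypo+ exceeded hypo by 0.78 ± 0.12 and 0.78 ± 0.10 (adjusted p = 0.00475 and 0.000796). The male hypo+ versus hypo call was lost with slide as a fixed block (0.80, adjusted p = 0.0653), the Cy5 channel alone (0.73, adjusted p = 0.162), only the compared groups in the fit (0.78, adjusted p = 0.0573) and median centring (0.65, adjusted p = 1). Median centring also ended the female call (0.65, adjusted p = 0.851) and the male hyper versus hypo call (1.04, adjusted p = 0.342). The female hypo minus control difference was -0.55 ± 0.09 (adjusted p = 0.0169), a call lost without control pup 523 or 882 or hypo pup 316 or 743 (-0.56 to -0.50, adjusted p at most 0.0863) and without the arrays with raised acinar markers (-0.58, adjusted p = 0.0504). That call was also lost with 5 other settings, normexp, median centring, the scanner software's ratios, the Cy5 channel alone and only the compared groups (-0.58 to -0.47, adjusted p at least 0.0612). The male hypo minus control difference was -0.43 ± 0.12 (adjusted p = 0.395), and hyper minus control was 0.53 ± 0.11 in males and 0.35 ± 0.09 in females (adjusted p = 0.155 and 0.25). With both sexes in 1 fit the male hyper versus control difference was called (0.53, adjusted p = 0.0199). With both sexes averaged and the same assumed litters as a random block, hypo minus control was -0.49 ± 0.08 (limma adjusted p = 0.000277). Hyper minus control was then 0.44 ± 0.08 (adjusted p = 0.000949), and hypo+ minus control 0.29 ± 0.08, not called (adjusted p = 0.0848).

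The second Stat5b probe, A_51_P281938, was dim (raw Cy5 signal of 139 to 261.5) and its differences were smaller in the same order of hypo below hyper. Its levels ran from -0.02 to 0.25 in male hypo pups and from 0.42 to 0.58 in male hyper pups, and from 0.06 to 0.18 and 0.47 to 0.65 in the females, without overlap in either sex. Hyper exceeded hypo by 0.40 ± 0.08 in males and 0.43 ± 0.06 in females (adjusted p = 0.0137 and 0.00043), and the male call was lost without hypo pup 576 (0.35, adjusted p = 0.0565) or 891 (0.37, adjusted p = 0.0502). Normexp background correction ended the male call too (0.30, adjusted p = 0.224), and median centring ended it in both sexes (0.29 and 0.34, adjusted p = 1 and 0.124). With both sexes averaged and the same assumed litters as a random block, its hypo minus control difference was -0.24 ± 0.05 (limma adjusted p = 0.00733). Its hyper minus control difference in that fit was 0.17 ± 0.05, not called (adjusted p = 0.14). Unlike the brighter probe, its mean in hypo+ pups (0.30 in males and 0.32 in females) lay just under the control mean (0.36 in both). The 2 probes of the gene thus gave differences of unequal size.

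A further probe, A_52_P663027, carries the accession AK137889, which the study's supplementary naming gives as Stat5b but which has no RefSeq symbol, so it was not counted as a member. It was higher in hyper than in control pups by 0.95 ± 0.15 in males and 0.70 ± 0.12 in females (limma adjusted p = 0.024 and 0.0315). Its hypo minus control differences were 0.05 ± 0.16 and -0.14 ± 0.12 (adjusted p = 1 in each), with overlapping groups in both sexes. It was also called higher in hyper than in hypo pups, with means of 1.94 and 1.04 in males and 1.98 and 1.14 in females. In females it was called higher in hypo+ pups (mean 1.84) than in hypo pups as well. The difference between this probe and the 2 RefSeq probes of Stat5b was not tested.

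Over the 34 arrays Stat5a correlated with the brighter Stat5b probe at r = 0.879, and after the group means were removed at r = 0.033. The likeness thus lay between the group means. These correlations describe values measured on the same arrays. The genes are closely similar paralogs, and cross-hybridisation of their probes was not tested.

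Stat5a and Stat5b are neighbours on chromosome 11, transcribed away from each other. The promoter windows in RefSeq (build GRCm38.p6, 250 bases before to 50 after each start) were read for the members because these 2 genes moved together. The nearest windows of the pair begin 8.87 kb apart and share a stretch of 17 bases, 14 of them identical. The 2 windows printed below are not that nearest pair and begin 37.7 kb apart. The more downstream Stat5a start and the downstream Stat5b start share a stretch, shown here with the thyroid hormone receptor half-site (AGGTCA, or TGACCT on the other strand) in capitals.
Stat5a, chr11:100860234-100860533, plus strand: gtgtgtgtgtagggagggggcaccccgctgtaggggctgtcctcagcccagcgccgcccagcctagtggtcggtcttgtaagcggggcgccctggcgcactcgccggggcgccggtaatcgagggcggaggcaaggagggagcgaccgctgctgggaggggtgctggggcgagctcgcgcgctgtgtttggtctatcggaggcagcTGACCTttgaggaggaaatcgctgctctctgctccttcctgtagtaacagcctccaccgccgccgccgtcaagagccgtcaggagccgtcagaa
Stat5b, chr11:100822521-100822820, minus strand: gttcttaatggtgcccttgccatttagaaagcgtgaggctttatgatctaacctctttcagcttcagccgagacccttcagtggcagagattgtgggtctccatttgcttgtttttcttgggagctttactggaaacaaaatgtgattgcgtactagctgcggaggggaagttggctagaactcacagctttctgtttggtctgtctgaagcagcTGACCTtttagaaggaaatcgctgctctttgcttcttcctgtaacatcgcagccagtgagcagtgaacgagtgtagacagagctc
The shared stretch spans 65 bases, of which 58 (89.2%) are identical without gaps, and it holds the half-site at -44 to -39 in Stat5a and -35 to -30 in Stat5b, counted from each start.

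Of the 15 windows of 9 members (Socs2 had no window in the table), 6 held the half-site on either strand, against 16.3% of all 32851 windows. They were Igf1 (1 window), Igfals (2), Stat5a (2) and Stat5b (1). The STAT site TTCNNNGAA, which reads the same on both strands, was found in 3 of the 15 windows, 2 of Igfals and 1 of Socs3, against 8.3% of all windows. A direct repeat of the half-site spaced by 4 bases was in none of the 15 and in 0.0152% of all windows. None of these 15 windows overlaps another, but several belong to the same gene, so the shares count windows and not genes. A match of these letters is a description of the sequence only.

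Socs2 encodes a feedback inhibitor that is itself a target of STAT5. Its median SE over the 10 comparisons, 0.36, was the largest among the 13 probes. In males they were 2.25, 2.26, 2.56 and 2.79 in hypo pups, 1.85, 1.94, 2.27 and 3.51 in control pups, 1.70, 1.80, 2.11 and 2.71 in hypo+ pups, and 0.65, 1.55, 1.74, 2.06 and 2.35 in hyper pups. Hyper pups reached the lowest values, and a single hyper pup (583) overlapped the hypo range. In females they were 2.01, 2.37, 3.31, 3.31 and 3.46 in hypo pups, 1.84, 2.84, 3.12 and 3.13 in control pups, 1.31, 1.58 and 2.87 in hypo+ pups, and 1.34, 1.43, 1.53, 1.64 and 1.96 in hyper pups. Every female hyper pup lay below every female hypo pup, and control pup 831, an array with raised acinar markers, lay within the hyper range.

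Socs2 was lower in hyper than in hypo females, with a log2 difference of -1.31 ± 0.33 (2.48-fold, limma adjusted p = 0.0453). This call was lost with median centring (adjusted p = 0.116), the scanner software's ratios (0.134), the Cy5 channel alone (0.0798) and the hepatocyte marker mean as a covariate (0.0531), and it stood in 5 of the 17 fits that left out 1 array. It was lost without hypo pup 316, 575 or 721, any of the 5 hyper pups, control pup 394, 523 or 882, or hypo+ pup 543, with differences of -1.40 to -1.17 and an adjusted p of at most 0.144. The female hyper minus hypo difference was negative on 5 of 5 slides (-2.12 to -0.41). In males the same difference was -0.80 ± 0.34 (adjusted p = 0.495), and the female minus male difference of the 2 responses was -0.51 (95% interval -1.54 to 0.52). With both sexes averaged and the same assumed litters as a random block, the Socs2 hyper minus hypo difference was -1.06 ± 0.26 (adjusted p = 0.00794). Hyper minus control was -0.72 ± 0.34 in males and -1.15 ± 0.35 in females (adjusted p = 1 and 0.424). Hypo minus control was 0.07 ± 0.36 and 0.16 ± 0.35, well within its error.

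Socs3, the inhibitor induced by cytokines as well as growth hormone, stayed between -1.15 and -0.35 in all pups. Its 10 differences ran from -0.18 to 0.04 and none was called (limma adjusted p at least 0.927).

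Igf1 itself, the hormone of the axis, showed no called difference. Its levels were 4.16, 4.35, 4.43 and 4.90 in male control pups, 4.22, 4.32, 4.34 and 4.89 in male hypo pups, 4.38, 4.42, 4.46 and 4.76 in male hypo+ pups, and 4.17, 4.19, 4.48, 4.50 and 4.80 in male hyper pups. In females they were 4.56, 4.57, 4.60 and 4.93 in control pups, 4.23, 4.41, 4.43, 4.44 and 4.81 in hypo pups, 4.33, 4.48 and 4.77 in hypo+ pups, and 4.29, 4.29, 4.39, 4.67 and 4.86 in hyper pups. All groups overlapped within each sex, and in each the highest pup stood above the rest. The 10 log2 differences ran from -0.20 to 0.06, and their 95% intervals together spanned -0.49 to 0.42, so changes of Igf1 beyond about that size were outside the intervals. The 10 spots of the probe had a median SD of 0.04 on an array, against a median SD between pups of a group of 0.24.

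The highest pup of each group was in every case the one on the 2 slides scanned together. On those 8 arrays Igf1 lay between 4.76 and 4.93, and on the other 26 between 4.16 and 4.67. Igfbp1, Igfbp2 and Igfals were also higher there in all 8 groups, on average by 0.79, 0.50 and 0.35 against 0.45 for Igf1. Within groups, Igf1, Igfbp1 and Igfbp2 followed the hepatocyte marker mean of the array with r = 0.918, 0.935 and 0.902 over 34 arrays, whereas Stat5a had r = 0.229, the brighter Stat5b probe -0.092 and Socs2 0.126. These points share their array and its normalization, and the part that the slides played was not tested beyond a block. With slide as a fixed block the median SE of the Igf1 differences fell from 0.16 to 0.08 and that of Igfbp1 from 0.27 to 0.10. That of Stat5a fell from 0.14 to 0.11, while those of Socs2 (0.36 to 0.41) and the brighter Stat5b probe (0.11 to 0.13) rose. No probe of Igf1, its binding proteins, Igfals or Ghr was called under that block either. The closest was Igfals in female hypo versus control pups, -0.30 ± 0.07 (adjusted p = 0.1), beside Igf1 at -0.22 ± 0.06 (adjusted p = 0.311).

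**Figure D3:**
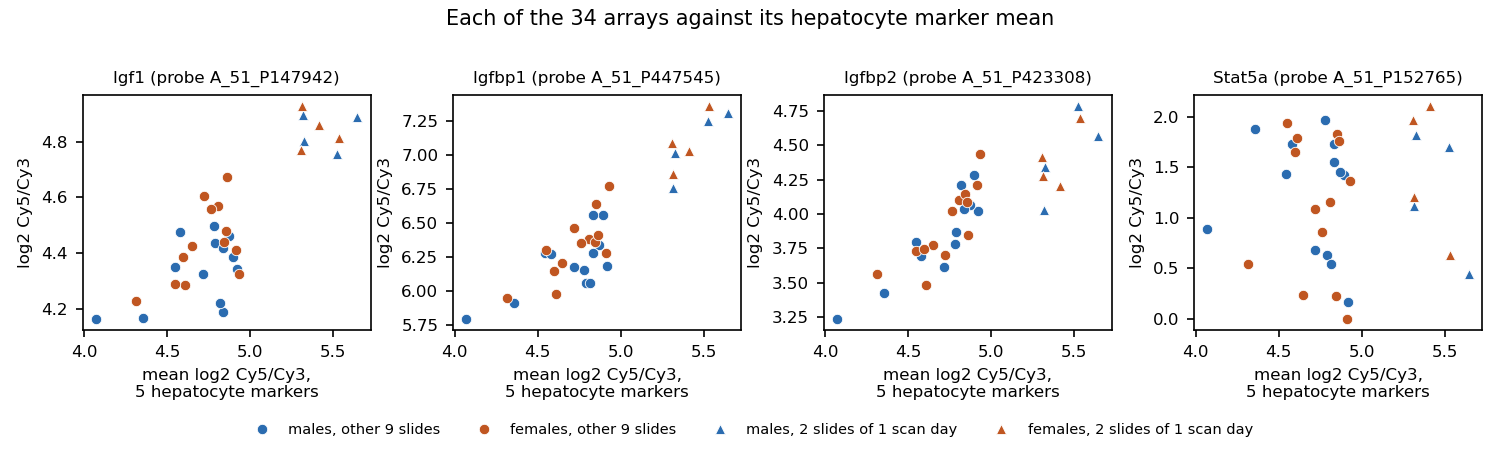
Log2 Cy5/Cy3 ratio of Igf1, Igfbp1, Igfbp2 and Stat5a (vertical axes) against the mean log2 ratio of 5 hepatocyte markers (horizontal axes) on each of the 34 arrays, with colours for sex and triangles for the 8 arrays of the 2 slides scanned on 1 day. The triangles lie to the right of all circles, at 5.31 to 5.65, and Igf1, Igfbp1 and Igfbp2 climb with the marker mean while Stat5a does not.

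Among the carriers, Igfals, the acid-labile subunit, ran from 2.72 to 3.80 over all pups. Its mean was highest in control pups and lowest in hypo+ pups in each sex, by a hypo+ minus control difference of -0.27 ± 0.15 in males and -0.39 ± 0.16 in females (limma adjusted p = 0.747 and 0.988). Igfbp1, a binding protein that hepatocytes raise in fasting, ran from 5.79 to 7.36, and Igfbp2, a binding protein abundant in young liver, from 3.23 to 4.79. Both had their highest mean in hypo+ pups of each sex. For Igfbp1, hypo+ minus control was 0.45 ± 0.29 in males and 0.32 ± 0.28 in females (adjusted p = 0.8 and 1). For Igfbp2 it was 0.56 ± 0.23 and 0.29 ± 0.22 (adjusted p = 0.579 and 1). With slide as a block the male values were 0.36 ± 0.09 for Igfbp1 and 0.41 ± 0.11 for Igfbp2, still not called (adjusted p = 0.306 and 0.351). The female values under that block were smaller, 0.09 ± 0.16 for Igfbp1 and 0.12 ± 0.16 for Igfbp2, and for Igfals -0.24 ± 0.09. Igfbp3, the main carrier in adult serum, ran from 2.32 to 3.02, with group means between 2.58 and 2.78 and differences of -0.13 to 0.08. With slide as a block its male differences were larger, -0.34 ± 0.09 for hypo+ minus hypo and -0.24 ± 0.08 for hypo+ minus control, neither called (limma adjusted p = 0.212 and 0.427).

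Ghr, the receptor that starts the signal, gave no call at any of its 3 probes. Probe A_51_P499854 ran from 2.03 to 2.58 over the 34 pups, A_52_P680935 from 3.08 to 3.58 and A_52_P680941 from 2.86 to 3.79. Their 30 differences were all between -0.23 and 0.12, and the 95% intervals of the 3 probes together reached from -0.46 to 0.31. The largest was hypo+ minus control in males at A_52_P680941, -0.23 (limma adjusted p = 0.68), where the other probes gave -0.07 each. With slide as a block that male difference was -0.33 ± 0.12 (adjusted p = 0.44), against -0.03 ± 0.08 at A_51_P499854 and -0.11 ± 0.08 at A_52_P680935. Under that block hypo+ minus hypo at A_52_P680941 was -0.30 ± 0.13 in males and -0.21 ± 0.10 in females (adjusted p = 0.46 and 0.598).

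**Figure D4:**
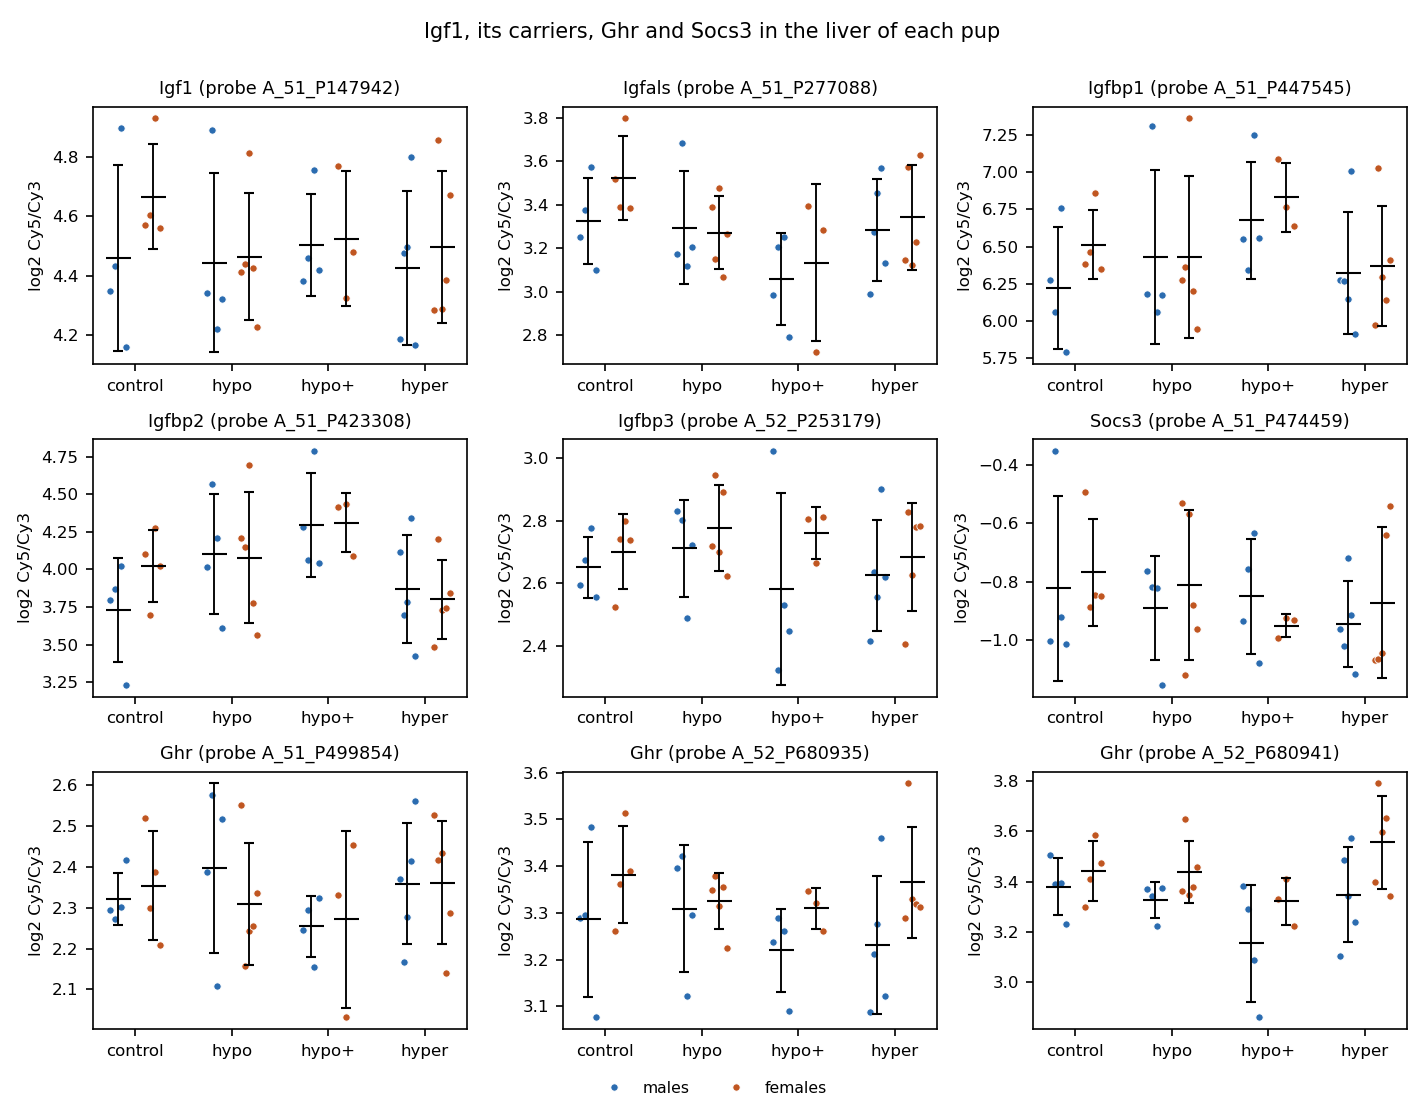
Log2 Cy5/Cy3 ratio of the 9 probes with no call in any comparison (Igf1, Igfals, Igfbp1, Igfbp2, Igfbp3, Socs3 and the 3 Ghr probes) in each pup (points), by treatment and sex, with group mean and SD. Treatments overlap within each sex except male hypo+ above control for Igfbp2 and female hypo+ below control for Socs3. Of all probes, 4.12% and 5.88% did not overlap in these 2 comparisons. Single high pups stand out in the panels of Igf1, Igfbp1 and Igfbp2.

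No difference between the sexes in a response was called. Growth hormone is secreted in different patterns in adult males and females, and the liver reads that difference through STAT5B, which gives the reason to compare the sexes at this juvenile age. In the fit of all 34 arrays, no probe showed a called difference between the sexes in the response to hypo, hyper or hypo+ treatment (0% of 41174 probes in each). By limma 428, 520 and 547 probes (1.04%, 1.26% and 1.33%) had an unadjusted p under 0.05, none of them a member. These shares lie below what that threshold passes by chance, so the lack of calls does not show equal responses. The fit took no account of shared dams. With the assumed litters as a random block, 0 members were called too. For Stat5a the female minus male difference of the hyper minus hypo response was 0.16 (95% interval -0.24 to 0.55), and for the brighter Stat5b probe -0.07 (-0.37 to 0.22). Averaged over treatments, female minus male was called for 0.0996% of probes and for 0 of the 13 members, with 2 members at an unadjusted p under 0.05. These were 2 Ghr probes, higher in females by 0.14 ± 0.05 at A_52_P680941 and 0.08 ± 0.04 at A_52_P680935 (limma adjusted p = 0.419 and 0.523), while the third Ghr probe gave -0.01 ± 0.05.

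The wider pathway was read from 53 further genes of growth hormone and IGF signalling, of which 51 were measured by 81 probes. They were 8 measured ligands and receptors, 15 kinases, other STATs and inhibitors, 6 other IGF binding proteins and their proteases, 11 genes downstream of the IGF1 and insulin receptors and 11 hepatic targets of growth hormone. In females, 2 of the 81 probes were called higher and 3 lower for hyper versus hypo (2.5% of all probes were called there), and 1 lower for hypo+ versus hypo (0.556% of all), while 0 were called in the other 8 comparisons by limma (4 to 14 of the 81 probes had an unadjusted p under 0.05 in each of these, as did 2.98% to 9.18% of all probes). The median log2 difference of the 81 probes stayed between -0.03 and 0.02 throughout. Jak2, Igf1r and Insr were among the genes without a call.

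Of the called pathway genes, Cish, a STAT5-induced inhibitor of the same family as Socs2, was lower in hyper than in hypo females (-0.86 ± 0.20, limma adjusted p = 0.0268). Its levels ran from 1.65 to 2.74 in female hypo pups and from 0.83 to 1.94 in female hyper pups, with 1 hypo pup inside the hyper range. In males the difference was 0.09 ± 0.28, and the female minus male difference of the responses was -0.95 (95% interval -1.69 to -0.21, adjusted p = 1 over all probes). Onecut1, a liver transcription factor responsive to growth hormone, had female differences of -0.60 ± 0.13 for hyper minus hypo and -0.73 ± 0.15 for hypo+ minus hypo (adjusted p = 0.0192 and 0.041), against -0.34 ± 0.24 and -0.37 ± 0.25 in males. Egfr, the receptor for epidermal growth factor, had a female hyper minus hypo difference of -0.57 ± 0.12 at 1 of its 4 probes (adjusted p = 0.0137), against -0.08 ± 0.17 in males. The female minus male difference of that response was -0.48 (95% interval -0.92 to -0.04, adjusted p = 1). Elovl3, a fatty acid elongase with male-biased expression in adult liver, was higher in hyper than in hypo females by 1.14 ± 0.18 (adjusted p = 0.00133), with 0.75 ± 0.21 in males (adjusted p = 0.0997) and no overlap of the groups in either sex. Foxo1, the transcription factor restrained by insulin and IGF1 signalling, was higher by 0.35 ± 0.08 in females at 1 of its 2 probes (adjusted p = 0.0348) and by 0.38 ± 0.14 in males (adjusted p = 0.346).

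**Figure D5:**
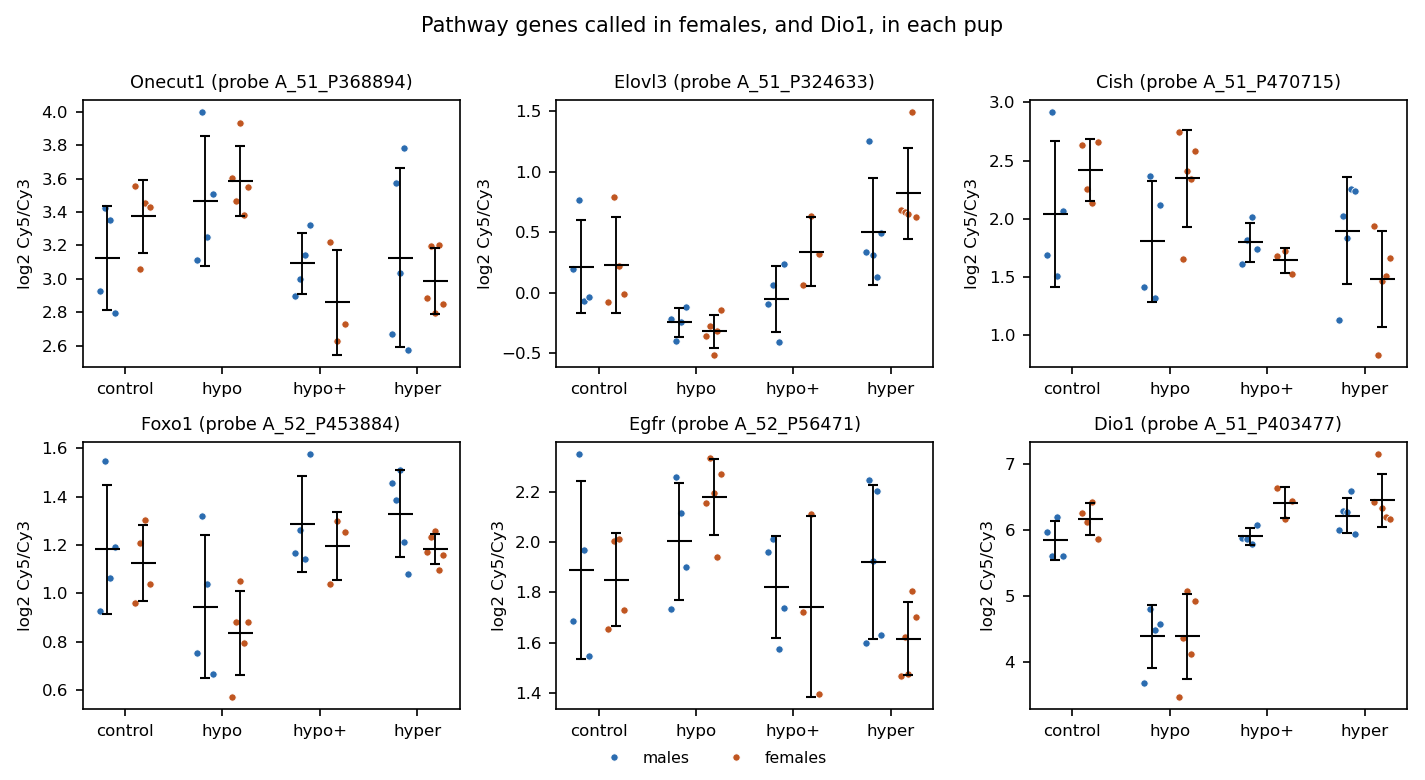
Log2 Cy5/Cy3 ratio in each pup (points) of the pathway genes called in at least 1 comparison (Onecut1, Elovl3, Cish, Foxo1 and Egfr) and of Dio1, by treatment and sex, with group mean and SD. Elovl3 and Dio1 have their lowest group mean in hypo pups of both sexes, and Cish, Onecut1 and Egfr are lower in hyper than in hypo females.

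The probes whose pattern over the 34 arrays was most like that of each called STAT5 probe were found among 29680 probes well above background on at least 17 arrays. For Stat5a they were Slc25a45 (r = 0.958), AK079336 (r = 0.953) and Idh3a (r = 0.946). For the brighter Stat5b probe they were Naa35 (r = 0.933), Bmf (r = 0.932) and AK084512 (r = 0.927), and for the dim one Nfe2l3 (r = 0.882), Atxn1 (r = 0.845) and Irf1 (r = 0.841). The 34 points share their arrays and their 8 group means, and these values only describe likeness.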

How the data were processed

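Liver RNA of 34 pups was measured on Agilent 2-colour arrays, 4 to a slide, on 11 slides scanned on 6 days. The deposited scanner files give the Cy5 and Cy3 intensity of each spot and a log10 ratio computed by the authors' scanner software (Feature Extraction 10.1.1.1). A second deposited table gives 1 value per spot and array, whose scale is not stated by the authors. Set against the scanner intensities, these deposited values behaved as log2 ratios of Cy5 to Cy3, normalized by the authors with loess per their methods (r of 0.846 to 0.995 per array, column medians of -0.05 to -0.02), and it served as an alternative. The authors' own centring of it is not stated.

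Median intensities were loess-normalized within each array without background subtraction, after the study's methods. Spots flagged as non-uniform or as outliers had weight 0 in the loess and were left out (77 to 212 of 43379 per array). Spots of a probe were averaged. limma 3.58.1 (R 4.3.3) fitted the 4 groups of each sex together in place of the study's permutation-based statistic, and all 8 groups together for sex. The number of arrays limits the precision. Negative log2 values mean less signal than in the reference.

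Probes were named from RefSeq accessions (16806 of 33541 systematic names matched, 23374 probes). The named genes are all member probes, the pathway genes called in at least 1 comparison, Dio1, Thrsp and the 3 probes most like each of the 3 STAT5 probes. The members and lists were chosen with earlier results of these data known. The pups of one treatment may share dams across the sexes, and 2 arrays per sex had been removed by the authors before deposit. Alternatives covered background correction, normalization, a filter on dim probes, slide and scan day as blocks, the groups fitted together, and leaving out each array.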

Additional observations from a re-analysis of the deposited data

Results flagged for a closer look

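Single pups stood apart from the rest of their group (by Dixon's test at the 95% level, with 91 group and probe pairs of 4 or 5 pups tested and about 1 in 20 flagged by chance) in 7 cases. Igf1 in female control pup 831 was at 4.93, against 4.56 to 4.60 in the other 3. In male hypo pup 576, Igfals was at 3.68 (others 3.12 to 3.21) and Igfbp1 at 7.31 (others 6.06 to 6.18). Ghr at A_52_P680935 was at 3.58 in female hyper pup 585 (others 3.29 to 3.33). Pups 831, 576 and 585 were all on the 2 slides scanned together. Socs3 was at -0.35 in male control pup 522 (others -1.01 to -0.92), at -0.49 in female control pup 394 (others -0.89 to -0.84) and at -1.15 in male hypo pup 891 (others -0.82 to -0.76). The array of pup 522 also had raised acinar markers, and their part in its Socs3 value was not tested.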

How the results depend on the processing

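The called member probes numbered 1 for hyper versus control in each sex, 2 for female hypo versus control, 2 for hypo+ versus hypo in each sex, 3 and 4 for hyper versus hypo in males and females, and 0 otherwise. No value changed sign while called. With normexp background correction the count was 0 for male hyper versus control and 0 for female hypo versus control, and male hyper versus hypo fell to 2. With median centring it was 0 for hyper versus control in either sex, 0 for female hypo versus control, 0 and 1 for hypo+ versus hypo and 1 and 2 for hyper versus hypo in males and females. With the scanner software's ratios it was 0 for hyper versus control in either sex and 0 for female hypo versus control, and female hyper versus hypo fell to 3. The Cy5 channel alone gave 3 for female hyper versus hypo, 1 for male hypo+ versus hypo and 1 for female hypo versus control. Slide as a block gave 1 for male hypo+ versus hypo, and scan day 1 for female hypo+ versus control. Fits of only the compared groups gave 0 for male hyper versus control, 0 for female hypo versus control and 1 for male hypo+ versus hypo. Both sexes in 1 fit gave 2 for male hyper versus control, and both sexes averaged with litter (assumed from the pup numbers) as a random block gave 3 for hypo versus control, 2 for hyper versus control and 1 for hypo+ versus control. Without the 4 arrays with raised acinar markers, an alternative chosen after the data were seen, it was 0 for hyper versus control in either sex and 0 for female hypo versus control. The hepatocyte marker mean as a covariate, also chosen after the data were seen, gave 3 for female hyper versus hypo. The causes were not tested. Leaving out 1 array gave 0 to 1 for hyper versus control in each sex, 0 to 2 for female hypo versus control, 2 to 3 for male and 3 to 4 for female hyper versus hypo, and no change elsewhere. Probe by probe, 6174 of the alternative values kept their side of the threshold, 79 lost a call and 13 gained one. The fit with both sexes averaged was set against each sex in turn, so its values enter these counts under males and again under females. Groups could not be paired by pup number, because each number belongs to 1 pup only. The slide and scan day blocks above do not replace a pairing by litter. Litters, assumed from the pup numbers, entered only as a random block.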
